A study of Mus musculus with 24 samples.

Results

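Expression of WNT pathway genes around Axin2 was examined in mouse melanoma cells that lack MITF, TFEB or TFE3, alone and in combination. The set was fixed by gene name and lists 10 genes: Axin1, Axin2, Lef1, Tcf7l1, Tcf7l2, Ctnnb1, Apc, Rnf43, Znrf3 and Nkd1. Of these, 7 were analysed among the 12010 genes of the expression table, and Lef1, Rnf43 and Nkd1 were not analysed here. The cells were B16F10-luc2, a B16-F10 melanoma line with a luciferase reporter that all lines shared, grown in DMEM with 10% FBS. The 8 lines were the parental line (WT), the MITF KO, TFE3 KO and TFEB KO, the MITF/TFE3, MITF/TFEB and TFEB/TFE3 double knockouts (DKO) and the triple knockout (TKO), with 3 libraries of each and 24 in all. The MITF KO carried a frameshift in Mitf and may keep some truncated protein, and TFEB and TFE3 were knocked out with CRISPR-Cas9 in the parental and the MITF KO cells. Every knockout genotype was a single line, so the effect of a genotype and any other difference between cell lines cannot be told apart.

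In the canonical WNT pathway a destruction complex built on the scaffolds AXIN1, AXIN2 and APC marks β-catenin, the product of Ctnnb1, for degradation. WNT binding to Frizzled receptors stops this, and β-catenin then joins DNA-bound TCF/LEF factors to switch on target genes, among them Axin2, whose product feeds back on the pathway. RNF43 and ZNRF3 remove Frizzled receptors from the cell surface and NKD1 acts on Dishevelled. In melanocytes the MITF promoter is itself a known target of β-catenin with LEF/TCF.

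Axin2 (ENSMUSG00000000142) lies on the plus strand of chromosome 11 at positions 108811169 to 108841609 of mm39, and Tcf7l1 (ENSMUSG00000055799) on the minus strand of chromosome 6 at 72603354 to 72766589. These are the members that passed the fold threshold below. A first search of RefSeq promoter windows of 300 bases (GRCm38.p6), which covered 4 of the 7 members in 6 windows, found the E-box letters CACGTG in 0 of the 6 (7.15% of all windows held them), CATGTG in 0 (14.2%) and any E-box, CANNTG, which takes in both, in 0 (72.3%). The TCF/LEF letters CTTTGA were in 0 of the 6 (16%) and CTTTGT in 2 (18.7%), each on either strand. After these results were seen, a second search with a wider window and other letters was made, for the 8-base MITF-family elements TCACGTGA and TCATGTGA and for the TCF/LEF letters CTTTGAT, on both strands and within 5000 bases of the annotated gene start. The palindrome TCACGTGA was found near 0 of the 7 members and near 8.29% of 11705 genes of the table. TCATGTGA was found near 4 of the 7 members and near 30.4% of all genes. Axin2 had 2 matches and Tcf7l1 had 1. Apc and Znrf3, which were not called in any line, likewise had 2 and 1. CTTTGAT was found near 6 of 7 members and near 78.4% of all genes. Axin2 held 6 matches of CTTTGAT, a number reached or exceeded by 0.777% of all genes, while Tcf7l1 held 1; that limit of 6 was taken from Axin2 itself, so the share is a description. The matches of the MITF-family letters at Axin2 and Tcf7l1 are shown, and those at Apc and Znrf3 are not. They are given because the knocked-out factors bind letters of this kind. The match is in capitals, written along the strand of the gene, where TCACATGA is TCATGTGA read on the other strand. The Axin2 upstream match lay 2484 bases before the start (chr11:108808669-108808708, plus strand), and the other was in an annotated exon 2818 bases after it (chr11:108813971-108814010, plus strand). The Tcf7l1 match lay 1251 bases before the start (chr6:72767817-72767856, minus strand).
Axin2 upstream: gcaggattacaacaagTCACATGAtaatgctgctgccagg
Axin2 exon: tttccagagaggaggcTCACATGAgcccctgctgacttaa
Tcf7l1 upstream: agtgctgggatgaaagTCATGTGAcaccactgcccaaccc

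The TCF/LEF letters closest to the Axin2 start were 84 bases after it in an exon (chr11:108811237-108811275) and 889 bases after it in an intron (chr11:108812042-108812080), both on the plus strand and both shown with the match in capitals. A match is a run of letters and not a measured binding site.
Axin2 +84: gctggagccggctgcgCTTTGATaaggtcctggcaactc
Axin2 +889: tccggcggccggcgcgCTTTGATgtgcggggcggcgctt

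The libraries held 18300902 to 26667877 reads on genes, with a median of 22445535. The targeted genes were lower where they had been knocked out, apart from Mitf. Tfe3 was at log2 fold changes of -0.88 to -1.99 in the 4 lines with the TFE3 KO, and Tfeb at -0.67 to -1.35 in the 4 lines with the TFEB KO. Mitf mRNA was higher than in the parental line in the MITF KO (0.85) and the MITF/TFE3 DKO (0.62), and lower in the TKO (-1.21) and the MITF/TFEB DKO (-0.42), so its level does not check the MITF KO labels. All 7 of 7 melanocyte lineage markers were measured, with a summed level (in CPM, the normalised read count scaled to library size) of 26100 to 31600 CPM in the 12 libraries with intact Mitf and 15800 to 40300 CPM in the 12 libraries with the MITF KO. The sum hides single markers. Over all libraries Dct ran from 12700 to 29500 CPM, Tyrp1 from 1060 to 4140, Pmel from 527 to 5150 and Mlana from 177 to 890. Tyr ran from 7.66 to 154 CPM, Sox10 from 632 to 1120 and Mitf from 326 to 1470. Of the other cell types, 2 of 4 fibroblast markers summed to 9.73 to 23.9 CPM with intact Mitf and 14.4 to 45.3 CPM with the MITF KO, 1 of 4 blood markers (Cd68) reached at most 1.74 CPM and 1 of 4 epithelial markers (Cdh1) at most 3 CPM. Of 3 endothelial markers, 1 (Pecam1) was measured, at 1.82 to 31.6 CPM with intact Mitf and 0 to 2.03 CPM with the MITF KO. The part of these markers in the results below was not tested.

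Each line was compared with the parental line in 1 limma fit over all genes. Called here means a change of 2-fold or more together with an unadjusted p under 0.05, and adjusted p-values (Benjamini-Hochberg) were taken over all genes. In the 4 lines with the MITF KO, 1 or 2 of the 7 members were called, and these were Tcf7l1 and Axin2, both lower. The TKO had 2 of 7 called (14.7% of all genes), the MITF/TFEB DKO 2 of 7 (13.7%), the MITF/TFE3 DKO 1 of 7 (5.87%) and the MITF KO 1 of 7 (6.28%). In the lines with intact Mitf limma called 0 of 7: the TFEB/TFE3 DKO (0.958% of all genes), the TFE3 KO (1.71%) and the TFEB KO (0.783%). There, 2, 3 and 4 members had an unadjusted p under 0.05, respectively, and edgeR called 0 in each. The share of all genes at an unadjusted p alone is not given here, so nothing is read from these counts.

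By the adjusted p alone, whatever the fold, 4 members passed in the TKO (56.2% of all genes), and 3 each in the MITF/TFEB DKO (56.1%), MITF/TFE3 DKO (41.9%) and MITF KO (37.8%). The TFEB/TFE3 DKO (8.81%), the TFE3 KO (12.3%) and the TFEB KO (4.84%) had 1 such member each. Nothing particular to the members is read from these counts. Over the members the log2 fold changes had a median of -0.14 in the TKO, -0.18 with MITF and TFEB knocked out, -0.25 with MITF and TFE3 knocked out and -0.27 in the MITF KO, where the median of all genes was 0.014, 0.013, 0.016 and 0.00059. With intact Mitf the median of the members was 0.05 in the TFEB/TFE3 DKO, -0.08 in the TFEB KO and -0.07 in the TFE3 KO, where that of all genes was -0.016, -0.0043 and -0.0016. All comparisons share the same 3 parental libraries. The labels do not say that the libraries of a line came from separate cultures, so p-values measure the spread between these libraries. In bulk RNA, fewer cells of a type and less RNA per cell cannot be told apart.

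**Figure D1:**
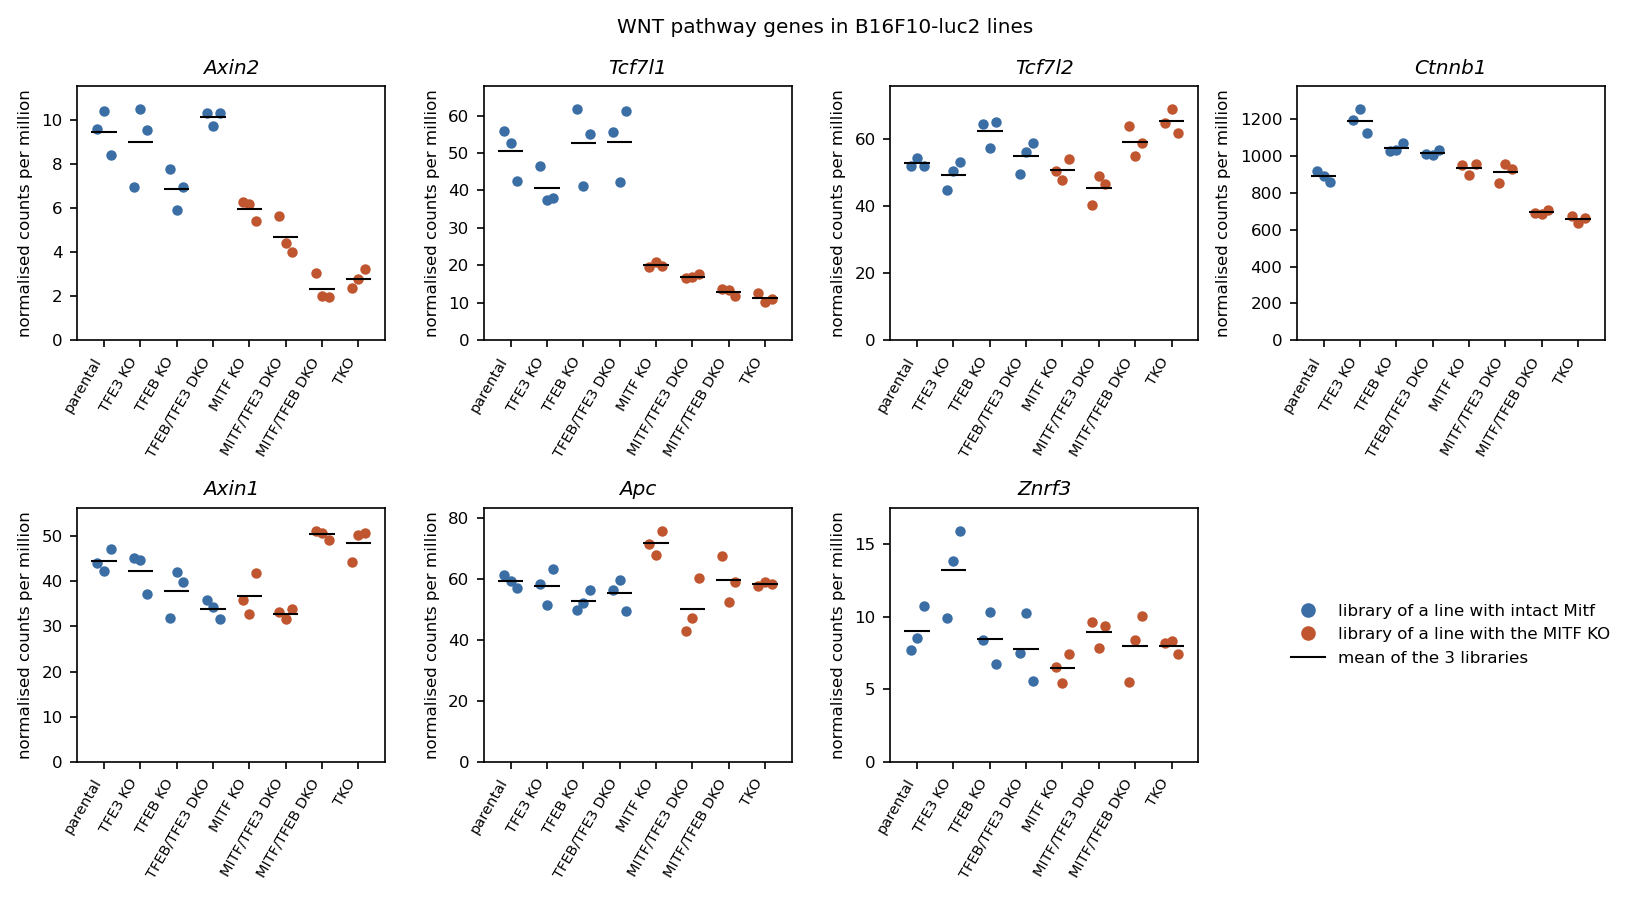
Normalised read counts (CPM) of 7 WNT pathway genes in 24 libraries, 1 panel per gene with its own axis from 0; points are libraries (blue, lines with intact Mitf; orange, lines with the MITF KO) and black lines are the means of 3 libraries. Tcf7l1 sits between 10.2 and 20.8 in the 12 orange libraries and between 37.4 and 61.7 in the 12 blue ones, and the lowest Axin2 means are those of the TKO (2.78) and the MITF/TFEB DKO (2.34).

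Axin2, the feedback scaffold and a common readout of the pathway, had few reads, 48 to 258 per library. The parental libraries held 9.58, 10.4 and 8.41 CPM. The TFE3 KO libraries held 6.93, 10.5 and 9.52 CPM, the TFEB KO libraries 7.77, 5.90 and 6.94 CPM and the TFEB/TFE3 DKO libraries 10.3, 9.72 and 10.3 CPM. Of these lines, the TFEB KO was the one whose libraries all lay below the parental ones, without passing the adjusted test (log2 fold change -0.41 ± 0.16 SE, adjusted p = 0.171 by limma). The MITF KO libraries held 6.26, 6.18 and 5.39 CPM and the MITF/TFE3 DKO libraries 5.65, 4.43 and 4.02 CPM. The MITF/TFEB DKO libraries held 3.06, 2.02 and 1.95 CPM and the TKO libraries 2.37, 2.76 and 3.23 CPM. All 12 libraries of these 4 lines lay below the 3 parental libraries.

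Against the parental line, Axin2 fell by 0.59 ± 0.16 SE (log2, adjusted p = 0.00567) in the MITF KO, to 62.9% of the parental mean, and by 0.88 ± 0.16 SE (adjusted p = 0.00013) in the MITF/TFE3 DKO, to 49.7%. Both passed the adjusted test in limma and missed the fold of 2. In the TKO it fell by 1.47 ± 0.16 SE (adjusted p = 5.17e-08), to 29.5%, and in the MITF/TFEB DKO it fell by 1.66 ± 0.16 SE (adjusted p = 8.12e-09), to 24.8%. These fold changes are on the log2(CPM + 1) scale, which understates a gene of this level, and edgeR on the recovered reads gave a 3.4-fold lower level in the TKO, 4.02-fold in the MITF/TFEB DKO and 2.01-fold in the MITF/TFE3 DKO. In the order of the 8 lines, 6 of the 7 steps between neighbours did not pass the adjusted test, and the step that did was that from the MITF/TFE3 DKO (4.70 CPM) to the TKO (2.78 CPM), where the libraries did not overlap (adjusted p = 0.00388).

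Tcf7l1, which encodes a TCF factor known for repressing targets when β-catenin is scarce, was the only member called in all 4 lines with the MITF KO. The parental libraries held 56.0, 52.8 and 42.6 CPM, the TFE3 KO libraries 46.6, 37.4 and 38.0 CPM, the TFEB KO libraries 61.7, 41.3 and 55.2 CPM and the TFEB/TFE3 DKO libraries 55.6, 42.2 and 61.1 CPM. The MITF KO libraries held 19.6, 20.8 and 19.9 CPM, the MITF/TFE3 DKO libraries 16.6, 16.9 and 17.6 CPM, the MITF/TFEB DKO libraries 13.8, 13.3 and 11.8 CPM and the TKO libraries 12.7, 10.2 and 11.01 CPM. Tcf7l1 was the only member whose 12 libraries with the MITF KO did not overlap the 12 with intact Mitf. Of all genes, 7.66% separated in either direction and 3.46% were lower with the MITF KO, as Tcf7l1 was. The 12 libraries with the MITF KO come from lines made in the same MITF KO cells.

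Tcf7l1 fell by 2.06 ± 0.14 SE (log2, adjusted p = 2.84e-11) in the TKO, fell by 1.87 ± 0.14 SE (adjusted p = 1.85e-10) in the MITF/TFEB DKO, fell by 1.50 ± 0.14 SE (adjusted p = 2.51e-08) in the MITF/TFE3 DKO and fell by 1.28 ± 0.14 SE (adjusted p = 2.51e-07) in the MITF KO. The means were 22.4%, 25.7%, 33.7% and 39.9% of the parental mean. In the MITF/TFEB DKO the order of Tcf7l1 and Axin2 depended on the scale: Tcf7l1 had the larger log2(CPM + 1) change, whereas edgeR put Axin2 at 4.02-fold and Tcf7l1 at 3.88-fold lower. With intact Mitf the difference was 0.06 in the TFEB/TFE3 DKO, 0.05 in the TFEB KO and -0.30 in the TFE3 KO (adjusted p = 0.852, 0.914 and 0.183). In the order of levels the step from the TFE3 KO to the MITF KO passed (log2 difference 0.97, adjusted p = 8.3e-06), as did that from the MITF/TFE3 DKO to the MITF/TFEB DKO (0.37, adjusted p = 0.0399), and the other 5 steps did not. The genes around Tcf7l1 and Axin2 shifted by less than 0.3: the median log2 fold change of the 100 nearest measured genes lay between -0.08 and 0.04 in all 7 comparisons at Tcf7l1, and at Axin2 was -0.18 for the TKO and -0.25 for the MITF/TFEB DKO.

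Tcf7l2 (ENSMUSG00000024985, plus strand of chromosome 19, 55730188 to 55922091) encodes another TCF factor and had levels that overlapped between lines with and without the MITF KO. Its libraries ran from 40.4 to 68.9 CPM with the MITF KO and from 44.7 to 65.1 CPM with intact Mitf. The parental libraries held 52.0, 54.3 and 51.8 CPM and the TKO libraries 64.9, 68.9 and 61.9 CPM, all 3 above the parental range, and this rise of 0.30 ± 0.09 SE was the only one of the 7 comparisons to pass limma (adjusted p = 0.00866). The 64 nearest measured genes on chromosome 19 had log2 fold changes with a median of -0.78, -0.67 and -0.39 in the TKO, MITF/TFEB DKO and MITF/TFE3 DKO, against -0.013, -0.025 and -0.009 for all genes of that level. Tcf7l2 itself was at 0.30, 0.16 and -0.22 there. Within a library, Tcf7l1 reads per Tcf7l2 read averaged 0.956 ± 0.127 (SD, n = 3) in the parental line, 0.174 ± 0.0244 in the TKO and 0.220 ± 0.0214 with MITF and TFEB knocked out. The MITF/TFE3 DKO averaged 0.378 ± 0.0333 and the MITF KO 0.397 ± 0.0345. The ratio is read across lines only, and in the 3 other lines it was 0.833 to 0.970.

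Tcf7, which encodes the TCF factor TCF1, is no member but one of the listed pathway genes, and is named here after its values were seen. It had few reads, at most 52 per library. The parental libraries held 1.38, 1.96 and 1.39 CPM. The 12 libraries with the MITF KO held 0 to 0.545 CPM and the 12 with intact Mitf 1.19 to 2.51 CPM, without overlap, as for Tcf7l1. Of all genes, 7.66% separated in either direction and 3.46% were lower with the MITF KO. How many of the listed pathway genes separated is not given here, so the non-overlap of Tcf7 is a description. Tcf7 was called lower in the MITF KO (log2 fold change -1.05, adjusted p = 4.04e-05 by limma), the MITF/TFEB DKO (-1.32, adjusted p = 8.01e-07) and the TKO (-1.26, adjusted p = 1.35e-06). In the MITF/TFE3 DKO it was at -0.96 (adjusted p = 0.000109), short of the fold of 2 in limma and past it in edgeR. The log2(CPM + 1) scale of limma understates a gene of this level. The edgeR log2 fold changes of Tcf7 were -2.69, -5.61, -4.40 and -2.26 in the MITF KO, MITF/TFEB DKO, TKO and MITF/TFE3 DKO.

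Ctnnb1 (ENSMUSG00000006932), which encodes β-catenin, lies on the plus strand of chromosome 9 at 120757422 to 120789579 and had 13368 to 28951 reads per library, the most of the 7 members. The parental libraries held 917, 893 and 860 CPM and the TFE3 KO libraries 1195, 1253 and 1125 CPM. The TFEB KO libraries held 1025, 1031 and 1069 CPM and the TFEB/TFE3 DKO libraries 1010, 1006 and 1029 CPM. These lines lay above the parental range in every library. The MITF KO libraries held 950, 894 and 956 CPM and the MITF/TFE3 DKO libraries 854, 955 and 928 CPM, which overlapped the parental libraries. The MITF/TFEB DKO libraries held 691, 683 and 705 CPM and the TKO libraries 674, 636 and 661 CPM, all below the parental ones.

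Ctnnb1 rose by 0.42 ± 0.07 SE (log2, adjusted p = 0.000116 by limma) in the TFE3 KO and by 0.23 ± 0.07 SE (adjusted p = 0.0471) in the TFEB KO, while for the TFEB/TFE3 DKO the difference of 0.19 did not pass (adjusted p = 0.075). In the TKO it fell by 0.44 ± 0.07 SE (adjusted p = 5.55e-06), and in the MITF/TFEB DKO it fell by 0.36 ± 0.07 SE (adjusted p = 6.78e-05). In the MITF KO and the MITF/TFE3 DKO the differences were 0.07 and 0.03 (adjusted p = 0.434 and 0.704). No difference reached a fold of 2. The 74 nearest measured genes had medians of -0.26 for the TKO and -0.24 for the MITF/TFEB DKO. The end of Ctnnb1 overlaps the gene Ulk4 on the opposite strand, and the counting was not stated to use strand in the sources used here.

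Axin1 (ENSMUSG00000024182, plus strand of chromosome 17, 26350235 to 26414789), the constitutive scaffold of the destruction complex, did not follow Axin2. The parental libraries held 44.1, 42.2 and 47.2 CPM, the MITF/TFE3 DKO libraries 33.1, 31.6 and 33.8 CPM and the MITF/TFEB DKO libraries 51.2, 50.8 and 49.2 CPM. The first of these DKO lines lay below the parental libraries and the second above them. Axin1 fell by 0.27 (adjusted p = 0.0483 by limma) in the MITF KO, by 0.43 in the MITF/TFE3 DKO (adjusted p = 0.00266) and fell by 0.38 in the TFEB/TFE3 DKO (adjusted p = 0.0254). The first of these did not pass in edgeR (adjusted p = 0.0511). In the TKO and the MITF/TFEB DKO it was at 0.12 and 0.18 (adjusted p = 0.362 and 0.164). Within a library, Axin2 reads per Axin1 read averaged 0.214 ± 0.034 (SD, n = 3) in the parental line, 0.0573 ± 0.00541 for the TKO and 0.0463 ± 0.0116 for the MITF/TFEB DKO. With MITF and TFE3 knocked out it averaged 0.143 ± 0.0258, and all 3 libraries (0.119 to 0.170) lay below the parental range of 0.178 to 0.246. The MITF KO (0.164 ± 0.0313), TFE3 KO (0.215 ± 0.0539) and TFEB KO (0.186 ± 0.0527) overlapped that range. In the TFEB/TFE3 DKO the ratio averaged 0.299 ± 0.0223 and all 3 libraries (0.284 to 0.324) lay above the parental ones.

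Apc, the other scaffold, and Znrf3 (ENSMUSG00000041961, minus strand of chromosome 11, 5226324 to 5394939), the ubiquitin ligase that removes Frizzled receptors, passed the adjusted test against the parental line in none of the 7 comparisons in limma or edgeR. The end of Apc overlaps the lncRNA gene Gm58635 on the opposite strand. Apc libraries ran from 43.0 to 75.9 CPM over all lines, with the highest mean in the MITF KO (71.7 ± 4.003 CPM, SD, n = 3; adjusted p = 0.0609 against 59.3 ± 2.18 CPM in the parental line). At an unadjusted p under 0.05 Apc differed in the MITF KO (0.27) and the MITF/TFE3 DKO (-0.25). Znrf3 libraries ran from 5.42 to 15.9 CPM and 117 to 341 reads. The Znrf3 mean was highest in the TFE3 KO, at 9.92, 13.8 and 15.9 CPM against 7.72, 8.504 and 10.7 CPM in the parental libraries, which overlap (log2 fold change 0.50, 95% interval 0.057 to 0.943, adjusted p = 0.125).

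**Figure D2:**
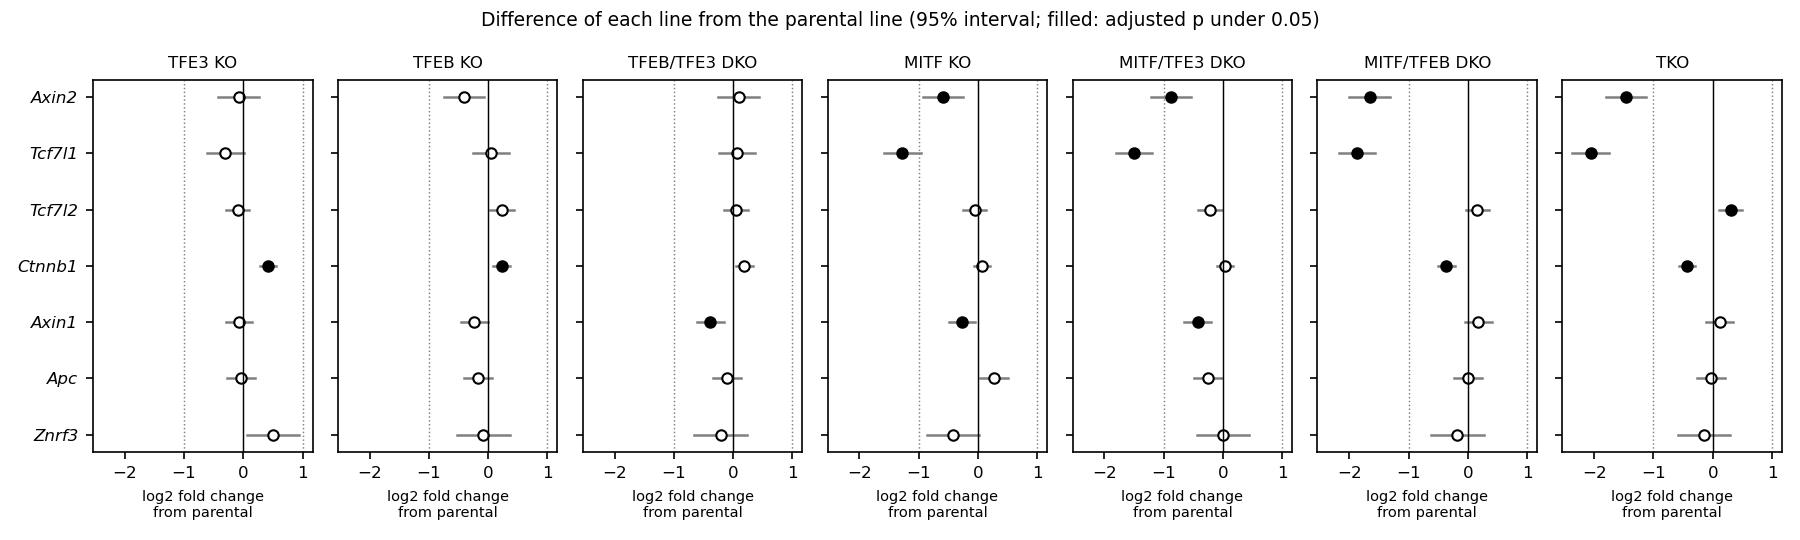
Log2 fold change of each of 7 members from the parental line (x axis) in each of 7 lines (panels), from the limma fit; bars are 95% intervals, filled points have an adjusted p under 0.05 and dotted lines mark a fold of 2. Tcf7l1 is past the dotted line in the 4 panels with the MITF KO (-1.28, -1.50, -1.87 and -2.06) and Axin2 in the TKO (-1.47) and the MITF/TFEB DKO (-1.66).

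Over all 28 pairs of the 8 lines, members differed in 92 of 196 comparisons (gene by pair) at an adjusted p under 0.05 in limma, where 39.8% of all such comparisons over all genes did. Tcf7l1 differed in 20 of 28 pairs, Axin2 in 19, Ctnnb1 in 18, Axin1 in 14, Tcf7l2 in 11, Apc in 6 and Znrf3 in 4.

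Loss of TFEB and of TFE3 from the MITF KO cells could be compared directly. Between the MITF/TFEB DKO and the MITF KO, 5 of 7 members passed the adjusted p (49.0% of all genes). Axin2 was lower in the DKO by -1.07 ± 0.16 SE (adjusted p = 7.97e-06), Tcf7l1 by -0.60 ± 0.14 SE (adjusted p = 0.00158), Ctnnb1 by -0.43 ± 0.07 SE (adjusted p = 1.07e-05) and Apc by -0.27 ± 0.11 SE (adjusted p = 0.0485), while Axin1 was higher by 0.45 ± 0.11 SE (adjusted p = 0.00131). Between the MITF/TFE3 DKO and the MITF KO, 1 of 7 passed (37.7% of all genes), namely Apc at -0.52 ± 0.11 SE (adjusted p = 0.000896). There Axin2 was at -0.29 and Tcf7l1 at -0.23 (adjusted p = 0.152 and 0.218). Between the TKO and the MITF/TFE3 DKO, which differ by TFEB, 5 of 7 passed (50.8% of all genes). Axin2 was at -0.59, Tcf7l1 at -0.56 and Ctnnb1 at -0.47, and Axin1 at 0.54 and Tcf7l2 at 0.52 (adjusted p = 0.00388, 0.00265, 2.47e-06, 0.00018 and 6.56e-05).

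Whether the effect of 1 knockout differed between backgrounds was tested with 4 interaction contrasts. The effect of the MITF KO in cells without TFEB, minus its effect in the parental background, passed for 4 of 7 members (35.1% of all genes): Axin2 (-0.66, adjusted p = 0.0273), Tcf7l1 (-0.65, adjusted p = 0.0165), Ctnnb1 (-0.66, adjusted p = 7.28e-06) and Axin1 (0.68, adjusted p = 0.00112). The change with the MITF KO was thus more negative without TFEB for Axin2, Tcf7l1 and Ctnnb1 and more positive for Axin1. Without TFEB and TFE3 the same contrast passed for 4 of 7 members (41.4% of all genes), with Axin2 at -0.97, Tcf7l1 at -0.85, Ctnnb1 at -0.70 and Axin1 at 0.77 (adjusted p = 0.00156, 0.00216, 3.04e-06 and 0.000291). Without TFE3 it passed for 2 of 7 (20.2%), Ctnnb1 (-0.45, adjusted p = 0.00107) and Apc (-0.48, adjusted p = 0.0334), and Axin2 and Tcf7l1 were at -0.21 and 0.07. The effect of losing TFEB without TFE3, minus its effect in the parental background, passed for 1 of 7 (12.4%), Ctnnb1 (-0.46, adjusted p = 0.00212). No interaction reached 1 on the log2 scale in limma.

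By the correlation of line means over the 8 lines, given as a description since the lines share the same libraries and normalization, the genes most like Axin2 were Mtf2 (r = 0.986), Mboat7 (0.984), Tars (0.981), Extl1 (0.979) and Nlk (0.978), a kinase that phosphorylates TCF/LEF factors. Among the members Axin2 was most like Tcf7l1 (r = 0.92) and Ctnnb1 (0.85) and least like Axin1 (-0.52). The genes most like Tcf7l1, chosen after its values were seen, were Spout1 and Nectin2 (0.992 each), Pkp4 (0.991), Rai14 (0.990) and Slc40a1 (0.987).

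Of 118 other genes of the pathway, listed by role, 75 were measured. The TKO had 7 called higher and 8 lower (20% of the 75, against 14.7% of all genes), the MITF/TFEB DKO 6 higher and 7 lower (17.3% against 13.7%), the MITF/TFE3 DKO 2 higher and 3 lower (6.67% against 5.87%) and the MITF KO 1 higher and 3 lower (5.33% against 6.28%). With intact Mitf 0 were called by limma. There 8 passed the adjusted p in the TFEB/TFE3 DKO (10.7% against 8.81% of all genes), 4 in the TFEB KO (5.33% against 4.84%) and 9 in the TFE3 KO (12% against 12.3%), and 14, 13 and 20 had an unadjusted p under 0.05. On the recovered reads, with no pseudocount of 1 CPM, edgeR called 23 of the 75 in the TKO, 20 in the MITF/TFEB DKO, 14 with MITF and TFE3 knocked out, 11 for the MITF KO, 3 for the TFEB/TFE3 DKO, 2 for the TFEB KO and 5 for the TFE3 KO. No difference from the rest of the genes is read from these shares. The shares of all genes by edgeR and at an unadjusted p alone are not given here. Those counts thus have no background, and the limma shares are not one for them. Of the 6 measured ligand and secretion genes none was called in any line.

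Among receptors Fzd2, a Frizzled receptor, rose from 17.9 ± 2.20 CPM (SD, n = 3) in the parental line to 63.9 ± 1.78 CPM in the TKO (log2 1.78) and 67.5 ± 3.81 CPM in the MITF/TFEB DKO (1.86), and stood at 14.8 CPM in the MITF KO and 21.1 CPM in the MITF/TFE3 DKO. Fzd6 rose in the MITF/TFE3 DKO from 1.77 to 5.07 CPM (1.15). Lgr4, a receptor of R-spondins, rose from 6.32 ± 0.698 CPM to 16.5 ± 1.07 CPM in the TKO and 19.6 ± 2.95 CPM in the MITF/TFEB DKO. Rspo3, a secreted R-spondin, was at 1.23 ± 0.197 CPM in the parental line and 0.0317 CPM in the TKO, where no library held more than 2 reads. It was at 0.319, 0.129, 0.344 and 0.488 CPM in the MITF KO, MITF/TFE3 DKO, MITF/TFEB DKO and TFEB/TFE3 DKO. There it passed the adjusted test in limma but was not called, at log2(CPM + 1) changes of -0.76, -0.99, -0.74 and -0.59. That scale understates a gene of this level, so a missed call does not mean a change under 2-fold. Frzb, which encodes a secreted WNT antagonist, fell from 37.7 ± 1.75 CPM to 17.5 ± 1.56 CPM in the MITF KO (-1.07). It stood at 20.2, 22.8 and 18.5 CPM in the TKO, MITF/TFEB DKO and MITF/TFE3 DKO. On the log2(CPM + 1) scale, which slightly understates the change, these were -0.87, -0.70 and -0.99, short of the fold of 2.

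In the cytoplasm Csnk1e, a casein kinase that acts with Dishevelled, fell from 294 ± 16.2 CPM to 126, 133 and 127 CPM in the TKO, MITF/TFEB DKO and MITF/TFE3 DKO. It was at 201 CPM in the MITF KO, past the adjusted test in limma but short of the fold of 2. Dact1, an antagonist that binds Dishevelled, rose from 1.51 ± 0.556 CPM to 9.71 ± 0.745 CPM with MITF and TFEB knocked out. It was also higher in the TKO (3.53 CPM, 0.87) and the MITF/TFE3 DKO (2.99 CPM, 0.69). These 2 rises passed the adjusted test in limma but were not called on the log2(CPM + 1) scale, which understates a gene of this level. Btrc, the ubiquitin ligase subunit that recognises phosphorylated β-catenin, fell to 9.58 CPM in the TKO from 20.8 CPM. In the MITF KO, MITF/TFE3 DKO and MITF/TFEB DKO it was also lower, at 14.5, 14.8 and 12.1 CPM. Dvl3, a Dishevelled, rose to 51.8 CPM in the TKO from 24.9 CPM, and stood at 33.1, 40.3 and 45.2 CPM in those lines. Both genes passed the adjusted test in limma there, short of the fold of 2. Of the nuclear partners, the corepressor Tle4 fell from 44.0 ± 4.48 CPM to 12.7 CPM in the TKO and 16.7 CPM in the MITF/TFEB DKO, and its relative Tle3 rose from 15.3 ± 1.32 CPM to 44.3 and 38.5 CPM in the same lines. Nlk fell from 209 CPM to 88.9 and 79.7 CPM there. In the MITF/TFE3 DKO Nlk was at 106 CPM and Tle4 at 31.7 CPM, and in the MITF KO Nlk was at 146 CPM. These differences passed the adjusted test in limma but were short of the fold of 2. Pygo1, a β-catenin co-activator partner, rose from 19.2 CPM to 45.2 CPM in the MITF KO and 49.7 CPM in the MITF/TFE3 DKO. It was lower in the MITF/TFEB DKO (11 CPM, -0.74) and, with intact Mitf, in the TFEB KO (13.5 CPM, -0.47). Both falls passed the adjusted test in limma, short of the fold of 2.

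Of 15 measured genes often used as pathway readouts, 3 were called lower and 3 higher in the TKO (40%, against 14.7% of all genes), 4 lower and 2 higher in the MITF/TFEB DKO (40% against 13.7%), 1 lower with MITF and TFE3 knocked out (6.67% against 5.87%) and 2 lower for the MITF KO (13.3% against 6.28%). By the adjusted p, 9 were lower and 5 higher in the TKO (93.3% against 56.2% of all genes). In the MITF/TFEB DKO 8 were lower and 3 higher (73.3% against 56.1%). With MITF and TFE3 knocked out 5 were lower and 2 higher (46.7% against 41.9%). For the MITF KO 6 were lower and 2 higher (53.3% against 37.8%). The median log2 fold changes of the 15 were -0.55, -0.47, -0.06 and -0.45 in these lines. Readouts in both directions thus passed in each of these 4 lines, with more lower than higher. The medians of all genes were 0.014, 0.013, 0.016 and 0.00059. In the lines with intact Mitf, limma called 0 of the 15. By the adjusted p, 3 were lower and 2 higher in the TFEB/TFE3 DKO (33.3% against 8.81% of all genes). The TFE3 KO had 1 lower and 3 higher (26.7% against 12.3%), and the TFEB KO 2 lower and 0 higher (13.3% against 4.84%). Id2 fell from 471 ± 26.6 CPM to 64.4 ± 3.05 CPM in the TKO (-2.85) and 97.6 ± 5.99 CPM in the MITF/TFEB DKO (-2.26), and stood at 510 CPM in the MITF KO and 579 CPM in the MITF/TFE3 DKO. Ccnd1, which encodes cyclin D1, fell from 429 ± 28.1 CPM to 197 ± 11 CPM in the MITF KO (-1.11) and 131 ± 1.56 CPM in the MITF/TFEB DKO (-1.70). It was also lower in the TKO (243 CPM, -0.82) and the MITF/TFE3 DKO (289 CPM, -0.57). The same held with intact Mitf in the TFEB KO (316 CPM, -0.44) and the TFEB/TFE3 DKO (320 CPM, -0.43). These differences passed the adjusted test in limma but were short of the fold of 2. Sox4 rose from 197 ± 21.4 CPM to 499 ± 29.9 CPM in the TKO and 521 ± 23.4 CPM in the MITF/TFEB DKO. It was at 274 CPM in the MITF/TFE3 DKO, past the adjusted test in limma but short of the fold of 2. Ephb3 had 0 reads in the 3 parental libraries and reached 3.09 CPM in the TKO and 2.37 CPM in the MITF/TFEB DKO, at least 23.1-fold and 17.8-fold higher than the level of 3 reads per parental library.

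**Figure D3:**
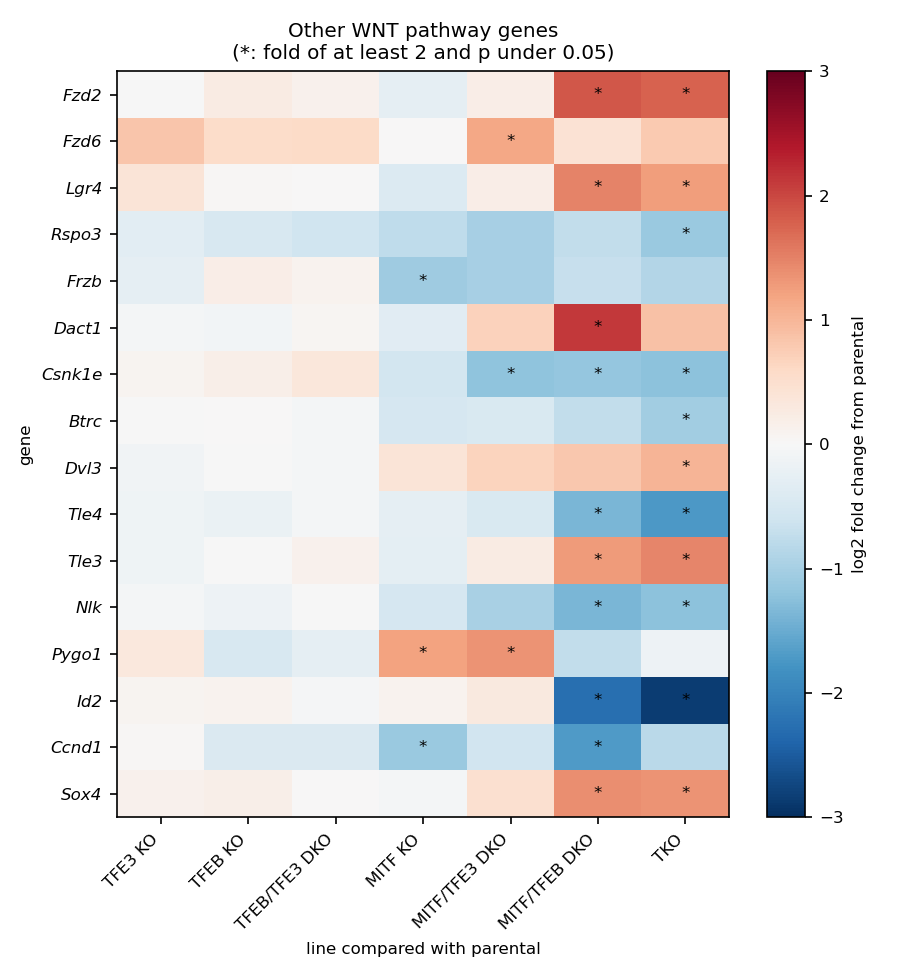
Log2 fold change from the parental line (colour, from -3 in blue to 3 in red) of 16 other WNT pathway genes (rows) in 7 lines (columns); an asterisk marks a fold of at least 2 with an unadjusted p under 0.05. Most asterisks lie in the TKO and MITF/TFEB DKO columns, with Id2 lowest (-2.85 and -2.26), Dact1 highest in the MITF/TFEB DKO (2.11) and no asterisk in the columns of lines with intact Mitf.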

How the data were processed

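3′ mRNA libraries (QuantSeq Forward kit) of 8 lines were analysed, with 3 libraries each. According to the submitters' processing notes and the study's methods, reads were checked with FastQC 0.11.9, trimmed with Trim Galore 0.6.5 and cutadapt 2.10, mapped to mm39 with STAR 2.7.8a and normalised with edgeR. The counting tool, annotation and low-count filter are not given in the sources used here. The authors deposited a normalised signal, CPM scaled by TMM factors (0.925 to 1.072). Such 3′ reads do not grow with transcript length. The value steps gave back whole reads: 100% of values were whole within 0.1 reads (99.99% in the lowest library). Replicates differed by more than sampling noise (chi-square per degree of freedom of at least 4.63).

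limma 3.58.1 (R 4.3.3) was fitted to log2(CPM + 1) of 12010 genes with a coefficient for each line and a variance trend (16 residual degrees of freedom). The 95% intervals use these 16 degrees of freedom. The design expected normalised values, as found. Fold changes, calls and Benjamini-Hochberg adjusted p-values follow the thresholds in the report. edgeR 4.0.16 quasi-likelihood on the recovered reads, other pseudocounts (0.25 and 5), a mean of at least 5 CPM, other normalizations, only the lines compared, a replicate block and leaving out each replicate were the alternatives. On data simulated for the MITF KO against the parental line over 12010 genes, limma recovered 91% of 2.5-fold and 100% of 4-fold changes. The 200 changed genes were drawn above a floor of reads, and all genes were given the same dispersion. These rates thus do not cover genes with few reads or a wider spread.

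Other pathway genes were named by a rule: at most 4 per role, ranked by size of change, out of called genes that also passed the adjusted test. Genes like Axin2 were the 5 of highest correlation among those with a mean of at least 5 CPM. Gene positions are from GENCODE on mm39, and sequences were read from GRCm39, which is mm39. The members and lists were chosen with earlier results of these data known, and the second motif search (its letters, window and limit of 6 matches) after the first was seen. Read floors cover counting error only.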

Additional observations from a re-analysis of the deposited data

How the results depend on the processing

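No member reversed its direction among called values under any alternative run. Axin2 decided every change in the number of called members against the parental line. In the MITF/TFE3 DKO, 2 members were called in place of 1 with edgeR and with quantile normalization, where Axin2 stood at -1.005 and -1.001. With a pseudocount of 5, 1 member was called in place of 2 in both the TKO and the MITF/TFEB DKO, as Axin2 stood at -0.89 and -0.98. An interaction past an adjusted p of 0.05 and 1 on the log2 scale was found for 0 members in limma and for 1 with edgeR, with a pseudocount of 0.25 and with quantile normalization. It was Axin2, for the effect of the MITF KO without TFEB and TFE3 (-1.20, -1.14 and -1.08). The 92 pairwise differences became 90 to 95, through Axin1, Tcf7l1, Ctnnb1, Apc and Znrf3 and not Axin2. Leaving out each replicate kept each count of called members. No scaling moved the median of all genes by more than 0.0607. Same-numbered libraries of different lines correlated by 0.0222 on average and other pairs by -0.0126, and 42 of 84 same-number pairs (50%) were over 0.1 against 68 of 168 other pairs (40.5%). Since not every same-number pair was over 0.1 and the labels name no shared batch or day, the numbers were not taken to pair the libraries. 11 of 24 libraries correlated best with their own number. With the replicate block, 2 members were called in the TKO and 1 in the MITF KO, as without it. Reads limit Axin2 and Znrf3 most, at 48 and 117 reads in their lowest libraries.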
